A study of Mus musculus with 6 samples.

Results

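The citric acid cycle oxidises acetyl groups inside the mitochondrion and passes the electrons to the respiratory chain, and in the heart, which lives largely on fatty acid oxidation, the carbon from fat, glucose, ketones and amino acids meets there. The transcripts described here are those of 9 genes of the cycle, Cs, Idh3a, Idh3b, Idh3g, Ogdh, Dlst, Fh1, Mdh1 and Mdh2, taken by gene name from the 30914 genes of the deposited table. Each name had 1 row, and all 9 were among the 13089 genes tested. The hearts came from male C57BL/6J mice of wild-type genotype, 8 weeks old, whose osmotic pumps delivered angiotensin II (Ang II), 1 μg/kg/min over 4 weeks, to induce pathological hypertrophy. In the Ang II group (n = 3) no further agent is named, and the Ang II + Tec group (n = 3) also received the flavonoid tectochrysin (Tec) at 5 mg/kg over the last 2 weeks. Below, its hearts are called treated, and values of single hearts stand in the order of the replicate numbers. All 6 hearts were therefore exposed to Ang II, no heart without it is among the libraries, and the part of the heart that was taken is not given. The comparison asks how Tec changes gene expression in the Ang II heart. Each library is labelled as a separate heart, and the p-values measure the spread between these hearts.

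Citrate synthase, encoded by Cs, joins acetyl-CoA to oxaloacetate and opens the cycle. Idh3a, Idh3b and Idh3g encode the catalytic alpha subunit and the beta and gamma subunits of the NAD-dependent isocitrate dehydrogenase, a rate-controlling enzyme that calcium and ADP activate. Ogdh and Dlst encode the first and second components of the oxoglutarate dehydrogenase complex, which calcium also activates. Fh1 encodes fumarate hydratase, which turns fumarate into malate, and Mdh2 the mitochondrial malate dehydrogenase, which closes the cycle. Mdh1 encodes the cytosolic malate dehydrogenase, which works with Mdh2 in the malate-aspartate shuttle that carries reducing equivalents into the mitochondrion.

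The 9 genes were among the more abundant transcripts of the heart, all at or above the 95.1 percentile of the mean FPKM of the tested genes. FPKM is the number of fragments per kilobase of transcript, scaled to the mapped fragments of the library, so levels can be set beside each other within a library. Mdh1 had the highest mean over the 6 libraries, 474 FPKM, followed by Mdh2 at 189, Ogdh at 157, Cs at 149.8, Idh3b at 142, Idh3a at 103, Idh3g at 97.96, Fh1 at 83.4 and Dlst at 50.003 FPKM. Mdh1 was 2.29 to 2.86 times as high as Mdh2, and Fh1 1.39 to 2.06 times as high as Dlst, in each of 6 libraries. In this order 3 neighbouring pairs were not separate. Ogdh lay above Cs in 3 of 6 libraries, Cs above Idh3b in 5, and Idh3a above Idh3g in 3. For Idh3a and Idh3g the 3 libraries were those of the Ang II group, as described for the subunit ratios.

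Promoter windows, from 250 bases before to 50 bases after the annotated start, were available for 8 of the 9 genes (RefSeq, GRCm38.p6, 13 windows). The windows of Idh3b and Idh3g, whose levels kept nearly 1 proportion to each other, are shown with those of Fh1 and Dlst, whose levels did not overlap between the groups. Capitals mark matches, on either strand, to the ETS motif CCGGAAG, the SP motif GGGCGG and the motif CCAAT. They lie at chr2:130284402-130284701 (minus strand), chrX:73786848-73787147 (minus strand), chr1:175625586-175625885 (minus strand) and chr12:85110583-85110882 (plus strand), in this order:
Idh3b: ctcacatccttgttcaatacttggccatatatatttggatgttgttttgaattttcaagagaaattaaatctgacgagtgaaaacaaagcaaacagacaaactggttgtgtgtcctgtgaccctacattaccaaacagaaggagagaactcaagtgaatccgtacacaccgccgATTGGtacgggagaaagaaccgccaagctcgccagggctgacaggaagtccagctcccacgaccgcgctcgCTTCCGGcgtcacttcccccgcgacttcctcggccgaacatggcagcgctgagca
Idh3g: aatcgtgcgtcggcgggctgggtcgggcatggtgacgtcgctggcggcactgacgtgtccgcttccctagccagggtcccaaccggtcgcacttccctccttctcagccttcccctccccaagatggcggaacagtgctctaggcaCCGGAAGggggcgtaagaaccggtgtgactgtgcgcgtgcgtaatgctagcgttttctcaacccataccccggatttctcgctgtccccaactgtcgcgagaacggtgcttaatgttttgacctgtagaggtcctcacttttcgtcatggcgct
Fh1: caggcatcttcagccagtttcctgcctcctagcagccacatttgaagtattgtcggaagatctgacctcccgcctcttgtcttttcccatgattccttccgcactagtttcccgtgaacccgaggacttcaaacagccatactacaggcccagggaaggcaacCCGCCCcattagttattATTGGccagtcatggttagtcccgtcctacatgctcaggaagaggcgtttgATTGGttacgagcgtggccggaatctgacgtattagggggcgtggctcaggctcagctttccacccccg
Dlst: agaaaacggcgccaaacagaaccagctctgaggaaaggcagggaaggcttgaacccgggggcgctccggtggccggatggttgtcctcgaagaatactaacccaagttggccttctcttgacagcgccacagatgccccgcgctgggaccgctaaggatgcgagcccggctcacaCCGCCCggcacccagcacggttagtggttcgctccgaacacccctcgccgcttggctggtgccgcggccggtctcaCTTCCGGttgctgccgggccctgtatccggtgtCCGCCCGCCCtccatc
The ETS motif was found in the windows of Idh3b, Idh3g and Dlst, and in 8.86% of all 32851 windows. The SP motif was found for 6 of the 8 genes (35.7% of all windows) and CCAAT for 5 (37.4%). The NRF1 motif (4.60% of all windows), the motif TNAAGGTCA of estrogen-related receptors (1.28%) and TATAAA (13.6%) were in none of the members' windows. CACGTG was found for Ogdh alone (7.15% of all windows). A gene was counted when any of its windows matched, and Ogdh had several windows, while the shares are of single windows. The counts and the shares are therefore not in the same unit. The ETS letters were thus shared by Idh3b and Idh3g, with higher means in the treated hearts, and Dlst, with a lower mean on the deposited scale.

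The libraries differed in more than the treatment. Their relative depth ranged from 0.893 to 1.21. Transcripts of the mitochondrial genome made up 40.1% to 48.9% of the summed FPKM in the Ang II group and 49.6% to 52.5% in the Ang II + Tec group. The 10 cardiomyocyte markers were high in all libraries, with summed levels of 14857 to 19109 FPKM in the Ang II group and 16348 to 18488 in the Ang II + Tec group. The 4 atrial markers (Myl7, Myl4, Sln and Bmp10) summed to 637 and 797 FPKM in Ang II replicates 1 and 2 and to 1568 in Ang II + Tec replicate 2, but to 0.29 to 2.62 FPKM in the other 3 libraries. The sum of the 6 fibroblast markers was 622 and 798 FPKM in Ang II replicates 1 and 2, and between 110.4 and 187 in the others. The sum of the 6 leukocyte markers was 153 to 329 FPKM in the Ang II group and 112 to 123 in the Ang II + Tec group. The sum of the 5 adipocyte markers was 130 FPKM in Ang II + Tec replicate 2 and 13.8 to 51.9 in the others. That library had the highest level of Idh3g, Ogdh, Fh1 and Mdh1. The sum of 4 fast skeletal muscle markers was 78.8 and 220 FPKM in Ang II replicates 1 and 2, and 15.3 to 48.5 in the others. Ang II replicate 2 had the lowest cardiomyocyte sum and the highest fibroblast, leukocyte, fast skeletal muscle and erythroid sums, and 7 of the 9 genes had their lowest level in it. The part of these differences in the results below was not tested, except where values by library are given. In bulk tissue, fewer cells of a type and less RNA per cell cannot be told apart.

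In the treated hearts, 6 of the 9 genes had a higher mean and 3 a lower mean than in the Ang II hearts on the scale of log2(FPKM + 1). The median log2 fold change of the 9 genes was 0.14, while that of all tested genes was -0.17, and 80.0% of the tested genes were lower with Tec. Without Ang II replicate 2 the medians were 0.025 for the 9 genes and -0.13 for all tested genes. A scaling that brings the median ratio between libraries to 1 (median of ratios) put the median of all genes at 0.0087 and all 9 genes higher, with a median of 0.39. Directions of the 9 genes are therefore given against both scales. Of the 9 genes, 0 had an adjusted p-value under 0.05 (limma, Benjamini-Hochberg over all tested genes), against 0.183% of all tested genes, or 0.16% when a log2 fold change of 1 or more in size was also required. At an unadjusted p-value under 0.05 the numbers were 0 of 9 and 18.6%. The levels of Idh3g and Fh1 were higher with Tec without overlap between the groups, as in 2.9% of all tested genes, and those of Idh3a and Dlst lower without overlap, as in 18.9%. Without Ang II replicate 3, whose fibroblast marker sum was inside the span of the treated hearts, 2 of the 9 genes had an adjusted p-value under 0.05. In that fit 3701 of all tested genes, or 28.7%, had one as well, so the count among the 9 genes was not above that of the table.

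**Figure D1:**
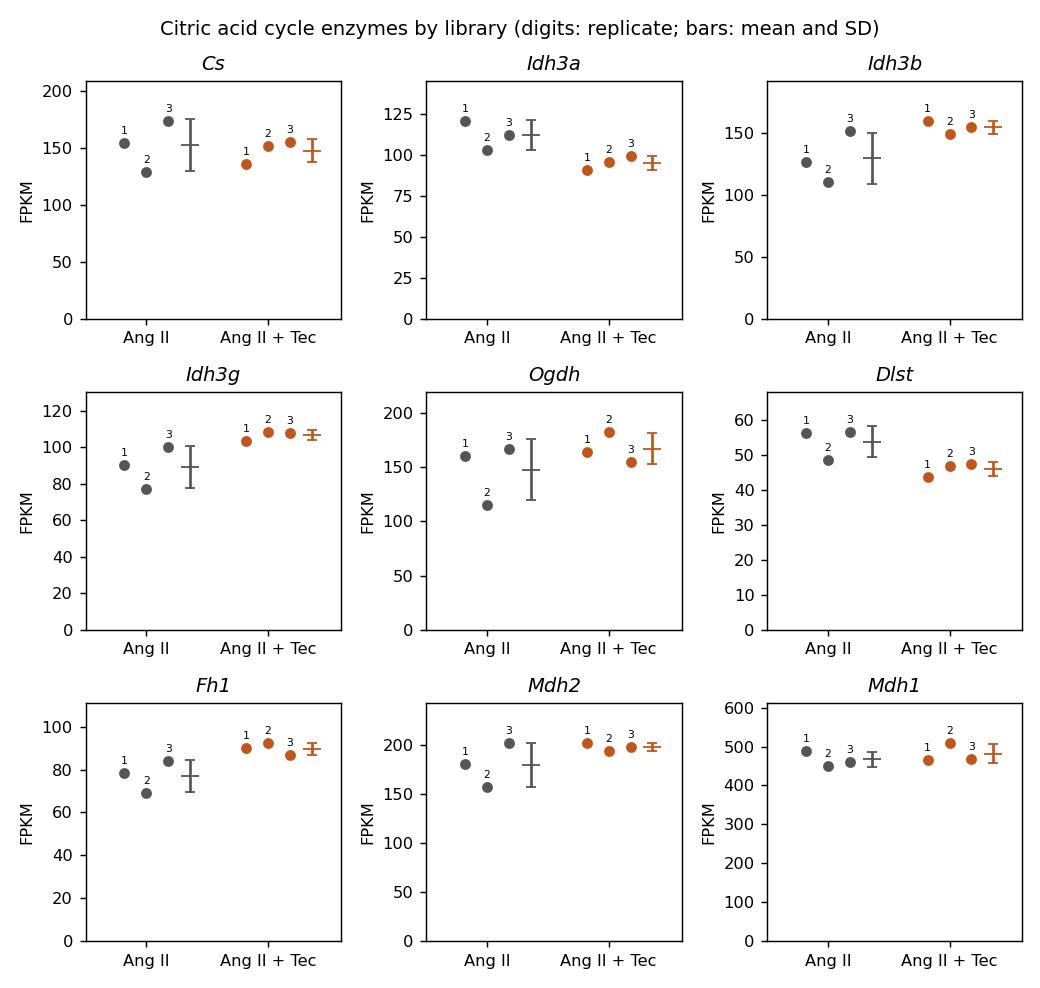
FPKM of the 9 genes (vertical axes, starting at 0) in each library of the Ang II and the Ang II + Tec group, with the replicate number above each point and the mean and SD (n = 3) beside it. The points of the groups do not overlap for Idh3a, Idh3g, Dlst and Fh1, and Ang II replicate 2 is the lowest library for 7 genes.

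The subunits of isocitrate dehydrogenase differed in direction on the deposited scale, with the catalytic subunit lower and the others higher in the treated hearts. Idh3a (ENSMUSG00000032279, GRCm38 chromosome 9 from 54586334 to 54604661), which carries the catalytic site, was at 121, 103 and 112 FPKM across the 3 Ang II hearts and at 90.6, 95.8 and 99.1 in the treated hearts. Every treated heart was below every heart of the Ang II group. The log2 fold change was -0.23 (95% interval -0.49 to 0.035, limma adjusted p-value 0.304), near the median of all tested genes, and 0.016 after scaling by the median of ratios. Idh3b (ENSMUSG00000027406, chromosome 2 from 130279309 to 130284547) was at 126, 109.99 and 151 FPKM across the 3 Ang II hearts and at 159.6, 149 and 154 in the treated hearts. Ang II replicate 3 was inside the span of the treated hearts. The log2 fold change was 0.27 (95% interval -0.061 to 0.59, limma adjusted p-value 0.323) and 0.51 after scaling by the median of ratios. Idh3g (ENSMUSG00000002010, chromosome X from 73778963 to 73786897) was at 90.2, 77.3 and 100.04 FPKM across the 3 Ang II hearts and at 104, 109 and 108 in the treated hearts. The groups did not overlap, but Ang II replicate 3 came within 4 FPKM of the lowest treated heart. The log2 fold change was 0.26 (95% interval -0.030 to 0.56, limma adjusted p-value 0.296) and 0.51 after scaling by the median of ratios. Among all tested genes the differences of Idh3b and Idh3g stood at the 95.8 percentile and that of Idh3a at the 38.6 percentile. Idh3b and Idh3g were the genes that passed the test without Ang II replicate 3, with log2 fold changes of 0.38 and 0.35 (limma adjusted p-values 0.0333 and 0.0447), as 28.7% of all tested genes did in that fit. Without Ang II replicate 2 the log2 fold changes were 0.16 and 0.17. Over all alternatives their adjusted p-values ranged from 0.0333 to 0.706 and from 0.0366 to 0.685.

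A ratio of 2 genes within a library does not change with the scaling of that library. The FPKM of Idh3b was 1.05, 1.07 and 1.35 times that of Idh3a across the 3 Ang II hearts and 1.76, 1.55 and 1.56 times in the treated hearts. The mean ratio was 1.16 ± 0.168 (SD, n = 3) with Ang II alone and 1.62 ± 0.119 (SD, n = 3) with Tec added, a difference larger than the spread between hearts. The ratio of Idh3g to Idh3a was 0.747, 0.753 and 0.894 across the 3 Ang II hearts and 1.14, 1.13 and 1.09 in the treated hearts. Idh3g was thus below Idh3a in each Ang II heart and above it in each treated heart. The mean was 0.798 ± 0.0831 (SD, n = 3) against 1.12 ± 0.0296 (SD, n = 3). Both ratios were 1.41-fold higher with Tec (log2 difference 0.50, exact permutation test, two-sided, p = 0.1 each, adjusted p = 0.175 over 7 ratios). With 3 hearts against 3 this p-value of 0.1 is the smallest that the exact test can give. The 2 ratios share Idh3a, so they are not separate observations. How often the ratio of 2 genes taken from the whole table separates the groups was not computed, for these or for the ratios below. The ratio of Idh3g to Idh3b was 0.693 ± 0.0269 (SD, n = 3) with Ang II alone and 0.693 ± 0.0405 (SD, n = 3) with Tec added, so these subunits kept nearly 1 proportion in every library, between 0.65 and 0.73.

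The isocitrate dehydrogenase ratios were also higher with Tec when the libraries with and without atrial transcripts were taken separately. The libraries with them were not alike in amount. Their atrial marker sums were 637 and 797 FPKM in the Ang II hearts and 1568 in the treated heart. Their fibroblast marker sums were 622 and 798 FPKM against 187. Among the 3 libraries with atrial transcripts the log2 ratio of Idh3b to Idh3a was 0.55 higher with Tec and that of Idh3g to Idh3a 0.60 higher. Among the 3 libraries without them these differences were 0.30 and 0.32. Each of these comparisons has 1 heart in an arm and carries no test. Leaving out 1 library gave differences of 0.43 to 0.61 for Idh3b over Idh3a and 0.45 to 0.58 for Idh3g over Idh3a. The genes of the second length quartile (1613 to 2806 bases), which holds Idh3a (2580 bases) and Idh3b (1616 bases), had a median log2 fold change of -0.20. The shortest quartile, which holds Idh3g (1331 bases), had -0.22. After a correction of each library for length and GC content the differences of the 2 ratios were 0.53 and 0.54 on the log2 scale. The part of length and GC content in these ratios was not tested. Idh3b shares 5 exon bases with Nop56 on the other strand, and no overlap of exons was annotated for Idh3a and Idh3g. Shifts between transcript variants of different length, of which 4 to 9 are annotated per subunit, were not tested.

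**Figure D2:**
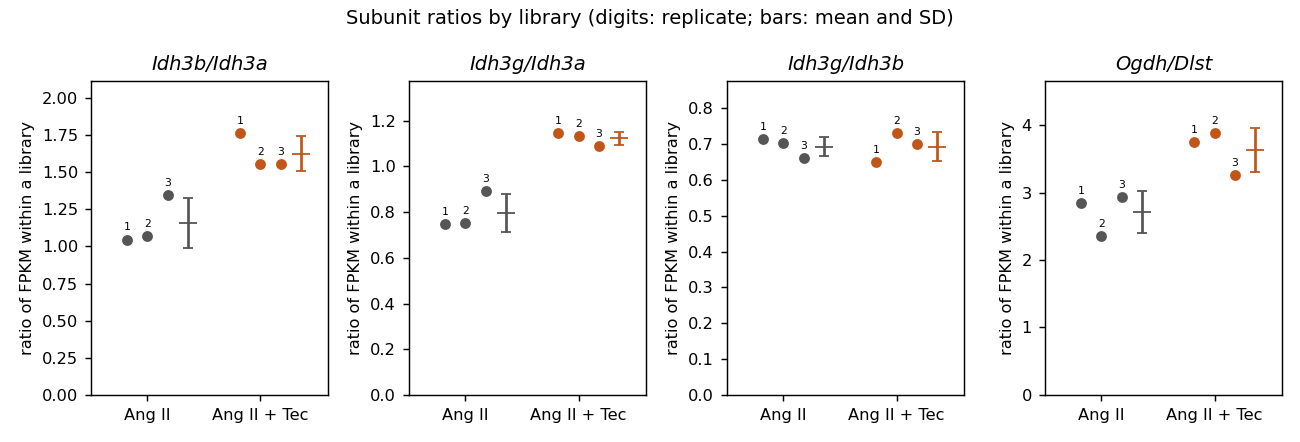
Ratio of the FPKM of 2 subunit genes within each library (vertical axes, starting at 0) for the Ang II and the Ang II + Tec group, with the replicate number above each point and the mean and SD (n = 3) beside it. Idh3b/Idh3a, Idh3g/Idh3a and Ogdh/Dlst are higher in all 3 treated hearts than in any Ang II heart, and Idh3g/Idh3b overlaps between the groups.

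Opposite directions on the deposited scale were also seen in the oxoglutarate dehydrogenase complex. Dlst (ENSMUSG00000004789, chromosome 12 from 85110833 to 85134845), the succinyl-transferring core, was at 56.3, 48.8 and 56.8 FPKM across the 3 Ang II hearts and at 43.7, 47.1 and 47.4 in the treated hearts. The groups did not overlap, with 1.4 FPKM between Ang II replicate 2 and the highest treated heart. The log2 fold change was -0.22 (95% interval -0.48 to 0.040, limma adjusted p-value 0.311) and 0.019 after scaling by the median of ratios. Ogdh (ENSMUSG00000020456, chromosome 11 from 6291633 to 6356642), the decarboxylating component, was at 160, 115 and 167 FPKM across the 3 Ang II hearts and at 164, 183 and 154 in the treated hearts, so the groups overlapped. Its log2 fold change was 0.19 (95% interval -0.20 to 0.58, limma adjusted p-value 0.50) and 0.025 without Ang II replicate 2. It was 0.44 after scaling by the median of ratios, and the difference was 0.42 among the libraries with atrial transcripts and -0.069 among those without. The ratio of Ogdh to Dlst was 2.85, 2.36 and 2.94 across the 3 Ang II hearts and 3.75, 3.88 and 3.26 in the treated hearts. The means were 2.72 ± 0.312 (SD, n = 3) and 3.63 ± 0.328 (SD, n = 3), 1.34-fold higher with Tec (exact permutation test, two-sided, p = 0.1, adjusted p = 0.175 over 7 ratios). The difference was 0.58 on the log2 scale among the libraries with atrial transcripts and 0.25 among those without. Dld, the third component, which the pyruvate dehydrogenase complex shares, was at 91.7 ± 4.97 FPKM (SD, n = 3) and 91.3 ± 2.10 (SD, n = 3).

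Of the other 4 enzymes, Fh1 (ENSMUSG00000026526, chromosome 1 from 175600374 to 175625635) was at 78.3, 69.2 and 83.98 FPKM across the 3 Ang II hearts and at 89.8, 92.4 and 86.9 in the treated hearts. Every treated heart was above every Ang II heart. The log2 fold change was 0.22 (95% interval -0.049 to 0.49, limma adjusted p-value 0.323), 0.46 after scaling by the median of ratios and 0.14 without Ang II replicate 2. Among the libraries without atrial transcripts the difference was 0.072. Kmo lies across the end of Fh1 on the other strand without a shared exon base. Mdh2 (ENSMUSG00000019179, chromosome 5 from 135778480 to 135790391) was at 180, 157 and 202 FPKM across the 3 Ang II hearts and at 202, 194 and 198 in the treated hearts. Ang II replicate 3 was as high as the treated hearts, and the log2 fold change was 0.14 (95% interval -0.15 to 0.44). It was 0.39 after scaling by the median of ratios and 0.053 without Ang II replicate 2, and the difference was -0.013 among the libraries without atrial transcripts. Cs (ENSMUSG00000005683, chromosome 10 from 128337734 to 128362479) was at 154, 128 and 174 FPKM across the 3 Ang II hearts and at 136, 151 and 155 in the treated hearts. The treated hearts lay within the range of the Ang II hearts. Its log2 fold change of -0.036 (95% interval -0.37 to 0.30) turned to 0.21 after scaling by the median of ratios. The sequence-related gene Csl was listed at 0 to 0.08 FPKM. Mdh1 (ENSMUSG00000020321, chromosome 11 from 21556692 to 21572367) was at 489, 450.04 and 461 FPKM across the 3 Ang II hearts and at 466, 509 and 469 in the treated hearts. In deposited FPKM it varied least among the 9 genes. Its coefficient of variation was 4.55% over the 6 libraries against 9.22% to 14.4% for the others. Relative to the cardiomyocyte genes described below it ranged from -1.17 to -0.72 on the log2 scale. There its SD in the Ang II group, 0.228, was the largest of the 9 genes. The log2 fold change of Mdh1 was 0.044 (95% interval -0.21 to 0.30) and 0.29 after scaling by the median of ratios. Its annotated exons share 52 bases with Wdpcp on the other strand. The intervals of Cs, Mdh1 and Mdh2 include changes of over 0.29 on the log2 scale, so a change of that size could not be told from none with 3 hearts per group.

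The 3 ratios among these genes differed less. Cs was 0.845 ± 0.0249 times Mdh2 (SD, n = 3) with Ang II alone and 0.746 ± 0.0638 times (SD, n = 3) with Tec added, with no overlap (exact permutation test, p = 0.1, adjusted p = 0.175). Mdh1 over Mdh2 was 2.62 ± 0.299 (SD, n = 3) and 2.44 ± 0.172 (SD, n = 3), and Fh1 over Mdh2 was 0.430 ± 0.0125 (SD, n = 3) and 0.454 ± 0.0204 (SD, n = 3), with exact permutation p-values of 0.5 and 0.2.

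The enzymes were also set against the mean log2(FPKM + 1) of 10 cardiomyocyte genes (Myh6, Tnnt2, Tnni3, Actc1, Myl2, Myl3, Ryr2, Pln, Mb and Ckm), transcripts of the cells that hold most of the heart's mitochondria. Relative to them Idh3a was 0.32 lower with Tec and Dlst 0.31 lower, and Idh3b was 0.17 higher, on the log2 scale. The groups did not overlap for these 3 genes (exact permutation test, two-sided, p = 0.1, adjusted p = 0.3 over 9 genes). The difference was 0.17 for Idh3g, 0.13 for Fh1, 0.10 for Ogdh, 0.052 for Mdh2, -0.049 for Mdh1 and -0.13 for Cs, and the groups overlapped for each of them (exact permutation p of 0.2 to 0.8). The cardiomyocyte mean was 9.82, 9.54 and 10.02 in the Ang II hearts and 9.96, 9.82 and 9.88 in the treated hearts. Where all tested genes lie relative to it, and how many do not overlap, was not computed. On the deposited scale Idh3a and Dlst were near the median of all tested genes (-0.17). Relative to the cardiomyocyte genes, Ang II replicate 2 was the highest of the 6 libraries for Cs, Idh3a, Dlst and Mdh1 and the lowest for Ogdh. Without Ang II + Tec replicate 2 the difference was 0.0017 for Ogdh, 0.072 for Fh1, 0.13 for Idh3g and -0.12 for Mdh1. The values of Mdh2 lay between -2.36 and -2.22 in all 6 libraries. Of the 10 cardiomyocyte genes, 6 were higher and 4 lower with Tec, and Myh6 had a log2 fold change of 0.51. With Myh6 left out, the unadjusted exact permutation p-value was 0.2 for Idh3a and 0.1 for Idh3b, Idh3g, Dlst and Fh1. Which genes did not overlap thus depended on the cardiomyocyte genes used.

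**Figure D3:**
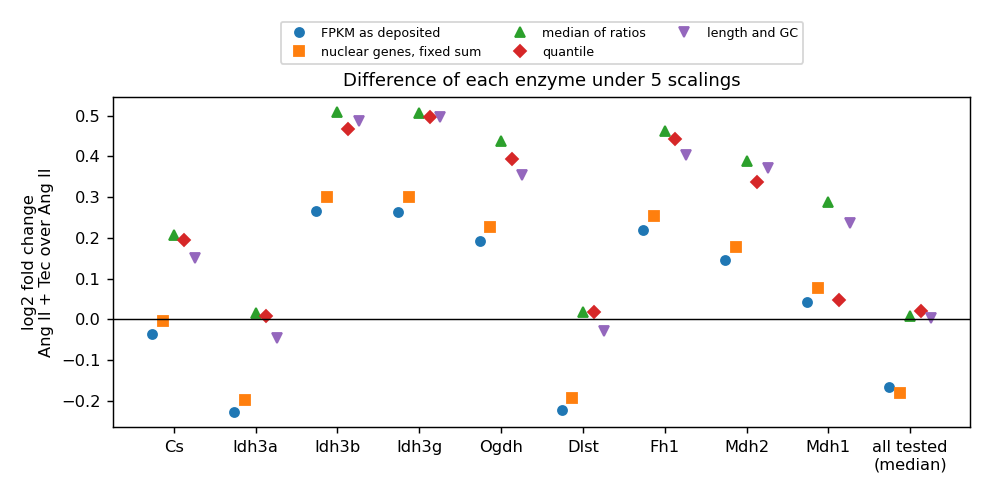
Log2 fold change of the Ang II + Tec group over the Ang II group (vertical axis) for the 9 genes and for the median of all tested genes, from limma fits with 5 scalings of the libraries. Scaling by the median of ratios, quantile normalization and the length and GC correction move most genes upwards, so that Idh3a and Dlst, lower on the deposited scale, lie near 0 and Cs turns from -0.036 to between 0.15 and 0.21.

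A further 9 genes of the cycle had a median log2 fold change of 0.033, with 5 higher and 4 lower means. Of these, 0 had an adjusted p-value under 0.05 and 2 an unadjusted one. Suclg2, the GDP-forming beta subunit of succinyl-CoA synthetase, was at 16.1, 12.99 and 22.3 FPKM across the 3 Ang II hearts and at 24.2, 23.97 and 23.6 in the treated hearts (log2 fold change 0.49, standard error 0.18, limma adjusted p-value 0.241), and its log2 fold change was 0.32 without Ang II replicate 2 and, with replicate 3 of that group left out instead, 0.69. The groups did not overlap, and the ADP-forming subunit Sucla2, at 107 ± 18.99 FPKM (SD, n = 3) and 115 ± 2.58 (SD, n = 3), overlapped. Sdhd, a membrane anchor of succinate dehydrogenase, was at 393, 364 and 380 FPKM across the 3 Ang II hearts and at 306, 310 and 327 in the treated hearts (log2 fold change -0.27, standard error 0.11, limma adjusted p-value 0.250). Its groups did not overlap either, and the difference was -0.023 after scaling by the median of ratios. The flavoprotein subunit Sdha had a log2 fold change of 0.22, the iron-sulfur subunit Sdhb 0.033 and the anchor Sdhc -0.018. After scaling by the median of ratios these were 0.47, 0.28 and 0.23, so that Sdhc turned, and without Ang II replicate 2 they were 0.078, -0.089 and -0.16. The ratio of Sdhd to Sdha, chosen after its values were seen and given with no test, was 2.18, 2.36 and 1.58 across the 3 Ang II hearts and 1.45, 1.40 and 1.44 in the treated hearts. Suclg1, the alpha subunit of succinyl-CoA synthetase, was at -0.038 and turned to 0.20 after scaling by the median of ratios. Idh2, the NADP-dependent mitochondrial isocitrate dehydrogenase, was at 301, 224 and 350.0 FPKM across the 3 Ang II hearts and at 397, 361 and 349 in the treated hearts, and its log2 fold change was 0.36 (standard error 0.18). It was 0.60 after scaling by the median of ratios, 0.18 without Ang II replicate 2 and, with replicate 3 left out instead, 0.50. In both groups Idh2 was more abundant per length than any subunit of the NAD-dependent enzyme.

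**Figure D4:**
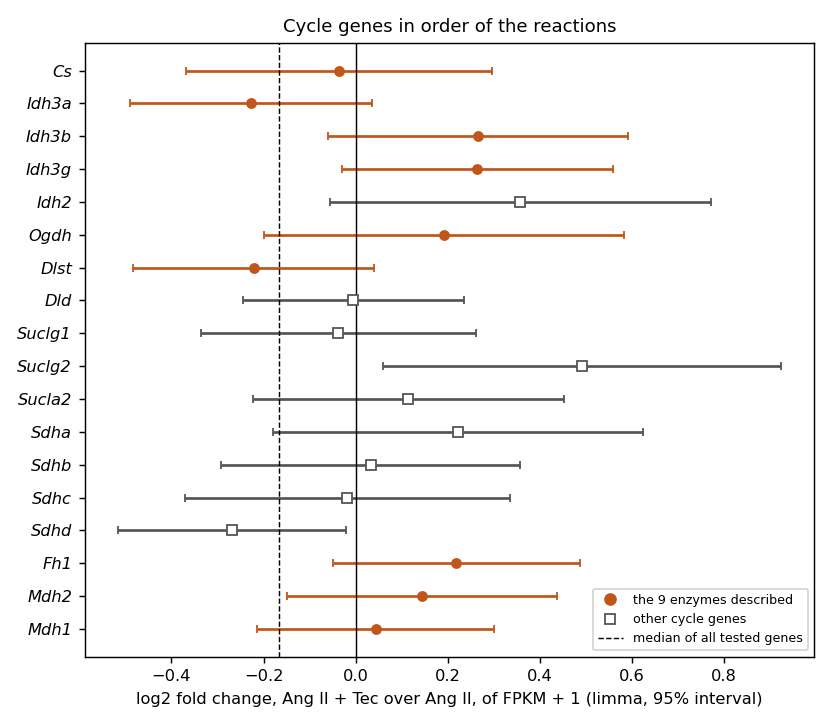
Log2 fold change of FPKM + 1 between the Ang II + Tec and the Ang II group (horizontal axis) with its 95% interval from limma, for the 9 genes (filled circles) and 9 other genes of the cycle (open squares), in the order of the reactions. The intervals of the 9 genes all include 0 (solid line), those of Idh3a and Dlst are centred near the median of all tested genes of -0.17 (dashed line), and those of Suclg2 and Sdhd exclude 0 before adjustment.

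A further list held genes that feed or drain the cycle, the malate-aspartate shuttle, assembly and accessory genes, and isoenzymes. Of its 36 genes, 34 were tested, 1 (Mdh1b) was not found by name in the table and Csl was below the limit for testing. Adjusted p-values under 0.05 were reached by 0 of the 34, and 6 had an unadjusted p-value under 0.05, all lower with Tec. Of all tested genes 18.6% had one, and 2165 of these 2439 genes were lower. The 5 assembly and accessory genes were all lower, with a median log2 fold change of -0.29, against a share of 80.0% lower and a median of -0.17 over the whole table. Sdhaf1, an assembly factor of succinate dehydrogenase, was at 12.2, 10.3 and 9.36 FPKM across the 3 Ang II hearts and at 6.4, 6.48 and 7.79 in the treated hearts, and the groups did not overlap (log2 fold change -0.56, standard error 0.14, limma adjusted p-value 0.201). Without Ang II replicate 3, where 28.7% of all tested genes passed, it passed the test too (-0.64, limma adjusted p-value 0.0144). The assembly factor Sdhaf4 was at -0.33 (standard error 0.13) and Mrps36, a component of the oxoglutarate dehydrogenase complex that is also named as a ribosomal protein, at -0.29 (standard error 0.10). The cytosolic isocitrate dehydrogenase Idh1 was at 16.9, 20.7 and 20.1 FPKM across the 3 Ang II hearts and at 14.2, 14.9 and 14.4 in the treated hearts (log2 fold change -0.38, standard error 0.12, limma adjusted p-value 0.221). Pck2, the mitochondrial phosphoenolpyruvate carboxykinase, and the dicarboxylate carrier gene Slc25a10 were at -0.40 (standard error 0.14) and -0.44 (standard error 0.17). Scaling by the median of ratios left all 6 of these genes lower, at -0.34 to -0.05, but Idh1, Mrps36 and Sdhaf4 no longer had an unadjusted p-value under 0.05 (limma, 0.349, 0.752 and 0.522). The 13 genes of pyruvate entry had a median of -0.030, and the 5 of the malate-aspartate shuttle one of -0.075.

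The tested genes outside these lists whose pattern over the 6 libraries was nearest to the mean pattern of the 9 enzymes were Rph3al, Ablim1, Hhatl, Sod2 and Hspd1, with root mean square distances of 0.0166 to 0.0319 on the log2 scale after centring. The mean pattern was -0.22 in Ang II replicate 2 and between 0.0041 and 0.094 in the other 5 libraries. Mdh2, at a distance of 0.056, was the enzyme nearest to the mean pattern, and Idh3a, at 0.16, and Dlst, at 0.15, were the farthest. Sod2, which encodes the mitochondrial superoxide dismutase, and Hspd1, which encodes the mitochondrial chaperonin, were the farthest of the named genes outside the lists. Rph3al, the nearest, was at 0.71 to 1.13 FPKM, where log2(FPKM + 1) understates changes. The log2 fold changes were 0.061 for Rph3al, 0.096 for Ablim1, 0.11 for Hhatl, 0.024 for Sod2 and 0.092 for Hspd1, with standard errors of 0.11 to 0.12.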

How the data were processed

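RNA sequencing libraries of poly(A) RNA from the hearts of 3 Ang II and 3 Ang II + Tec mice were compared, grouped by their titles. The deposited values are FPKM per gene and library, made by the authors after adapter removal (Cutadapt) and quality control (FastQC). The submitters' processing notes name HISAT2 (2.0), StringTie (1.3.0), Bowtie (0.12.2) and the build mm8, with no role. The deposited coordinates match GENCODE M21 on GRCm38 for 90.6% of 30832 shared genes; those of Mdh1 and Mdh2 differ from it, and the coordinates printed are as deposited. Whether the counting used strand is not given in the sources used here.

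Genes at 0.5 FPKM or more in at least 3 of 6 libraries (13089) were tested on log2(FPKM + 1) with limma 3.58.1 in R 4.3.3 (trend of the variance on the mean, no block), adjusted by Benjamini-Hochberg over all of them. This scale understates changes of low genes. Ratios were tested by exact permutation over libraries. FPKM keep no total of reads. Relative depth was read from the smallest recurring step of FPKM times length in short genes with 1 transcript, and every level of the 9 genes was at least 1635 such steps. Depth is therefore known only between libraries, and the spread between hearts is the error used. The fit was tested on simulated data with known changes. At a log2 fold change of 1 it recovered 134 of 200 changed genes with 5 false calls. At 2 it recovered 186 of 200 with 14 false calls, and with no changed gene it made 0 calls. Changes as small as those of the 9 genes were not simulated.

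Named were the 9 genes, 9 other cycle genes (1 further gene of that list is not reported here), those of the remaining list with an unadjusted p-value under 0.05 (at most 6) and the 5 genes nearest in pattern. The members, lists and tests were chosen with earlier results of these data known. The alternatives on atrial transcripts, on length and GC content and the ratios outside the 9 genes were added after seeing the data. Figures were drawn with matplotlib 3.10.9.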

Additional observations from a re-analysis of the deposited data

How the results depend on the processing

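Among the 9 genes, the number with an adjusted p-value under 0.05 (limma) was 0 in every fit except with array weights (2), a fit that stopped before it converged, and without Ang II replicate 3 (2), so that leaving out 1 library gave 0 to 2. Of all tested genes 27.1% and 28.7% had one in these 2 fits. At an unadjusted p-value under 0.05 it was 2 with scaling by the median of ratios, 3 with quantile normalization, 3 with the length and GC correction, 4 with array weights, and 0 to 3 without 1 library. The shares of all tested genes were 15.5%, 16.2%, 16.1%, 46.4% and 7.43% to 43.6%. The count with array weights was not above its share. Without Ang II replicate 3 it was 3 of 9 genes, not above the share of 43.6%, and without Ang II replicate 2 it was 1 of 9 against 8.99%. The number of genes over the whole table that also had a log2 fold change of at least 1 (21 with all libraries) was 6 with a pseudocount of 5, 3 without the filter, 13 with atrial transcripts as a covariate, 522 with array weights and 0 to 544 without 1 library. Without the fold limit it was 14, 3, 13, 3542 and 0 to 3701. Of the other cycle and linked genes, 9 had an adjusted p-value under 0.05 with array weights (14 unadjusted), and 0 to 10 without 1 library (2 to 16 unadjusted), of 43 tested with all libraries and thus below the shares of all genes given above for the fits with the most calls. Ang II replicate 3 gave the highest of these values when it was left out.

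Directions of small differences turned. With scaling by the median of ratios the log2 fold change was 0.21 for Cs, 0.016 for Idh3a, 0.019 for Dlst, 0.24 for Dld, 0.20 for Suclg1 and 0.23 for Sdhc, and with quantile normalization 0.19, 0.0082, 0.017, 0.23, 0.19 and 0.21. With the length and GC correction it was 0.15 for Cs, 0.17 for Dld, 0.18 for Suclg1 and 0.15 for Sdhc, and with array weights 0.14, 0.024, 0.11 and 0.16. With nuclear genes scaled to a fixed sum it was 0.028 for Dld and 0.015 for Sdhc, and with the atrial covariate -0.027 for Sdhb. Without 1 library Cs ranged from -0.15 to 0.066, Dld from -0.047 to 0.030, Suclg1 from -0.12 to 0.049, Sdhc from -0.16 to 0.10, Sdhb from -0.089 to 0.12, Sod2 from -0.064 to 0.075, Rph3al from -0.031 to 0.13, and Mdh1 relative to the cardiomyocyte genes from -0.17 to 0.054. The log2 difference of Idh3g over Idh3b was 0.0090 with the length and GC correction, 0.045 within the libraries with atrial transcripts and 0.025 within those without, and -0.038 to 0.045 without 1 library. That of Mdh1 over Mdh2 was 0.032 within the libraries without atrial transcripts. The other ratios kept their direction under each alternative run. The cause of these turns was not tested.

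The labels state no pairing of the hearts by replicate number, and the main fit used none. The deviations of same-numbered hearts correlated at -0.039, 0.43 and 0.38. Ang II replicates 2 and 3 correlated best with the treated heart of the same number, but Ang II replicate 1 with Ang II + Tec replicate 2 (0.21). Whether the numbers pair the hearts is therefore not known. With the replicate block, 0 of the 9 genes had an adjusted p-value under 0.05 (limma), against 23 of all tested genes, or 0.176%. Of all tested genes, 22 also had a log2 fold change of at least 1 in size.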
